A study of Mus musculus with 38 samples.

Results

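Unstimulated (M0) mouse bone marrow-derived macrophages carried H3K18la almost only where they also carried H3K18ac, while 54.2% of H3K18ac peaks had no H3K18la peak. The peaks compared were all 21885 peaks of the M0 H3K18la list and all 41493 peaks of the M0 H3K18ac list, 63378 of the 121754 peaks in the 4 lists of the series, with the spike-in read counts of the same libraries. The M0 cells were primary macrophages from C57BL/6 mice that received no LPS or IFNg (0 h). The same marks were mapped in M1 cells, which had 24 h of LPS at 5 ng/ml with IFNg at 12 ng/ml, and RNA was sequenced at 0, 4, 8, 16 and 24 h of that stimulation. A further arm had lactic acid added 4 h after LPS and IFNg and was sampled at 8, 16 and 24 h, which makes 8 RNA groups of 4 libraries. RNA values are printed here for 24 h and 0 h without lactic acid, while the fit and its low-value filter used all 32 RNA libraries. Each mark had 1 library per state, from chromatin cut with MNase, so no peak value has a replicate check and peak comparisons are descriptions of these libraries. Nothing in the labels ties the RNA libraries of a group to different animals or cultures, and the spread behind the p-values may be technical.

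Histone H3 lysine 18 (H3K18) sits on the tail that protrudes from the nucleosome, and several acyl groups can occupy that lysine. Acetylation (H3K18ac) is placed by acetyltransferases such as p300 and CBP and marks active promoters and enhancers. Lactylation (H3K18la) carries a lactyl group derived from lactate, the end product of glycolysis, and p300 has been reported to place it as well. Macrophages make much lactate once LPS and IFNg activate them. A ChIP-seq peak is a stretch of genome that an antibody enriched beyond the background, and both marks can share a peak without sharing a nucleosome or a cell.

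The promoters of Ldha, Il6, Acod1 and Zfp429 show the classes of start site that the results turn on. They are the 250 bases before the start site, read 5′ to 3′ on the gene's strand from RefSeq (GRCm38.p6), with every CG dinucleotide in capitals. Ldha, which makes lactate from pyruvate, stands for start sites with both marks (chr7:46845554-46845803, + strand). Il6, an inflammatory cytokine (chr5:30012864-30013113, + strand), and Acod1, the enzyme that makes itaconate (chr14:103046762-103047011, + strand), stand for start sites with H3K18ac and no H3K18la. Zfp429, a zinc finger gene (chr13:67399768-67400017, − strand), stands for the few start sites with H3K18la and no H3K18ac. It belongs to a repeated gene family, so short reads could be split among copies and the position of its peak is uncertain.
Ldha: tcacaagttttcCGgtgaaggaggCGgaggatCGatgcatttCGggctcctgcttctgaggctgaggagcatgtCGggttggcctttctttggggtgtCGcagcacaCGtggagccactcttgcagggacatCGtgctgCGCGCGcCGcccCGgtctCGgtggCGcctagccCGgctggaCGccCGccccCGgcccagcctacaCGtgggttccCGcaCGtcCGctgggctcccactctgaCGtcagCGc
Il6: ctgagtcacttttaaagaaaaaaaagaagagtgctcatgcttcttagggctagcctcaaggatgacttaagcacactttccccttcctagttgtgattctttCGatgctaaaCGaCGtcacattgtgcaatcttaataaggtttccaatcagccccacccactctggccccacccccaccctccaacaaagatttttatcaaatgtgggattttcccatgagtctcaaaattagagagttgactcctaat
Acod1: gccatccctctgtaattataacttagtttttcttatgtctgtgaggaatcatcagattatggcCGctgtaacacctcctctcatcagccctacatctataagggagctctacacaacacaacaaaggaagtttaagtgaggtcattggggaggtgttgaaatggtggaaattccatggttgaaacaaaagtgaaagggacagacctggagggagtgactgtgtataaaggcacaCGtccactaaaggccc
Zfp429: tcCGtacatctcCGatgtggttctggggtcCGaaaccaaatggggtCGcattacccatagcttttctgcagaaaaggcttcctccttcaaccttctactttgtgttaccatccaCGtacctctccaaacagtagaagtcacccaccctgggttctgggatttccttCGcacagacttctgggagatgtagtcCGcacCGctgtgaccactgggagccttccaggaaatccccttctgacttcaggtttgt
The Ldha stretch holds 25 CG dinucleotides, the Zfp429 stretch 8, the Il6 stretch 3 and the Acod1 stretch 2. Where a gene has several start sites, the one with the most H3K18la cover, then the most H3K18ac cover, was shown. The cover given here follows in part from that choice. H3K18la and H3K18ac each covered all 2001 bases within 1 kb of the Ldha start site shown. H3K18ac alone covered all 2001 bases at Acod1 and 1020 bases at Il6, and H3K18la alone covered 447 bases at Zfp429.

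The H3K18la library held 21765076 mouse reads, the H3K18ac library 36576826 and the M0 input 20537276. Chromatin of another species had been added as a spike-in, and 310066 reads of the H3K18la library mapped to it, or 1.40% of its mapped reads (95% Wilson interval 1.40% to 1.41%). In the H3K18ac library 52482 reads did, or 0.143% (95% Wilson interval 0.142% to 0.145%). The H3K18la library therefore had 70.2 mouse reads for each spike-in read and the H3K18ac library 697, a ratio of 0.101 (95% interval 0.0998 to 0.102). These intervals cover counting error only. The ratio compares libraries made with different antibodies, whose capture of histone and of spike-in chromatin was not measured, so it is not a ratio of modified histones. The deeper H3K18ac library also had more power to call weak peaks, and the part of depth in the counts below was not tested.

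H3K18la peaks were fewer and narrower than H3K18ac peaks and covered less of the genome, 34.8 Mb for H3K18la and 112 Mb for H3K18ac. The median peak was 1232 bp wide for H3K18la and 1516 bp for H3K18ac, and the widest was 23893 bp for H3K18la and 81936 bp for H3K18ac. Domains over 10 kb numbered 69 of the H3K18la peaks (0.315%) and 1677 of the H3K18ac peaks (4.04%). The authors' fold enrichment over background, which is their peak caller's own value and ranks peaks within a list only, had a median of 5.41 and a maximum of 28.6 for H3K18la. For H3K18ac the median was 3.93 and the maximum 12.0.

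Of the 21885 H3K18la peaks, 21648 (98.9%) overlapped an H3K18ac peak by at least 1 bp, and 16307 (74.5%) lay wholly inside one. Of the 41493 H3K18ac peaks, 19013 (45.8%) overlapped an H3K18la peak and 22480 did not. The shared 33.7 Mb made up 96.7% of the H3K18la bases and 30.03% of the H3K18ac bases. Counting only the 21885 H3K18ac peaks with the best p-values, a list as long as the H3K18la list, 92.4% of H3K18la peaks and 80.3% of H3K18ac peaks had the other mark. In M1 cells 94.7% of H3K18la peaks overlapped H3K18ac, against 98.9% in M0 cells, and 29.9% of H3K18ac peaks overlapped H3K18la, against 45.8% in M0 cells. The M1 lists held 16139 H3K18la and 42237 H3K18ac peaks. The median −log10 q of the H3K18la peaks was 5.50 in M1 cells and 10.1 in M0 cells. The part of list length and peak strength in these shares was not tested.

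Within the H3K18ac list, the presence of H3K18la followed the strength of the acetylation peak. The list was ordered by fold enrichment and divided into 10 deciles. In decile 1, from 2.40 to 3.12, 1.30% held an H3K18la peak. In decile 6, from 3.93 to 4.25, 48.3% did, and in decile 10, from 5.90 up, 99.9% did. Peak width rose with fold enrichment, from a median of 772 bp in decile 1 to 2660.5 bp in decile 10. The part of width in these shares was not tested. At equal rank, H3K18ac peaks within 1 kb of a start site held H3K18la more often than those farther away, with 67.2% against 17.8% in decile 5 and 95.2% against 66.9% in decile 7. Decile 1 held 195 start-site peaks and decile 10 held 2442.

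**Figure D1:**
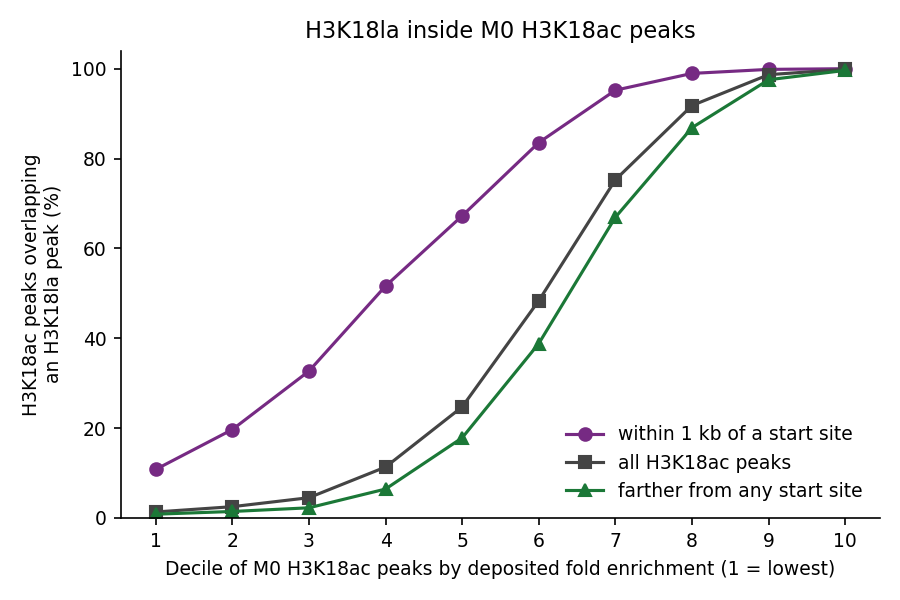
Share of M0 H3K18ac peaks that overlap an H3K18la peak (y axis, percent) in each decile of the H3K18ac list ordered by the authors' fold enrichment (x axis), for peaks within 1 kb of a start site (circles), all peaks (squares) and peaks farther away (triangles). For all peaks the share was 1.30% in decile 1 and 99.9% in decile 10, and the share for start-site peaks was above that for peaks farther away in each decile.

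The locations of the peaks differed accordingly. Start sites came from a RefSeq table of 27025 genes that holds none of chromosome 18 and lacks some genes, Actb and Csf1r among them, so a peak at such a promoter is counted as inside a gene or between genes. Of peaks with a distance, 40.4% of H3K18la peaks and 24.6% of H3K18ac peaks lay within 1 kb of a start site. The H3K18ac peaks with H3K18la lay there in 47.2% of cases, and those without H3K18la in 5.39%. Of the H3K18ac peaks without H3K18la, 59.2% lay inside genes and 35.4% between genes, at a median of 21212 bp from the nearest start site. Read the other way, H3K18la overlapped 88.1% of H3K18ac peaks at start sites, 34.6% of those inside genes and 27.5% of those between genes.

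Around protein-coding start sites both marks peaked just inside the gene. H3K18la covered the most start sites at 200 bp downstream, 44.8% of 21263, and H3K18ac at 150 bp downstream, 48.3%. H3K18ac reached farther out: 5 kb upstream H3K18la covered 3.09% of positions and H3K18ac 8.03%, and 2 kb upstream H3K18la covered 4.71% and H3K18ac 10.2%.

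**Figure D2:**
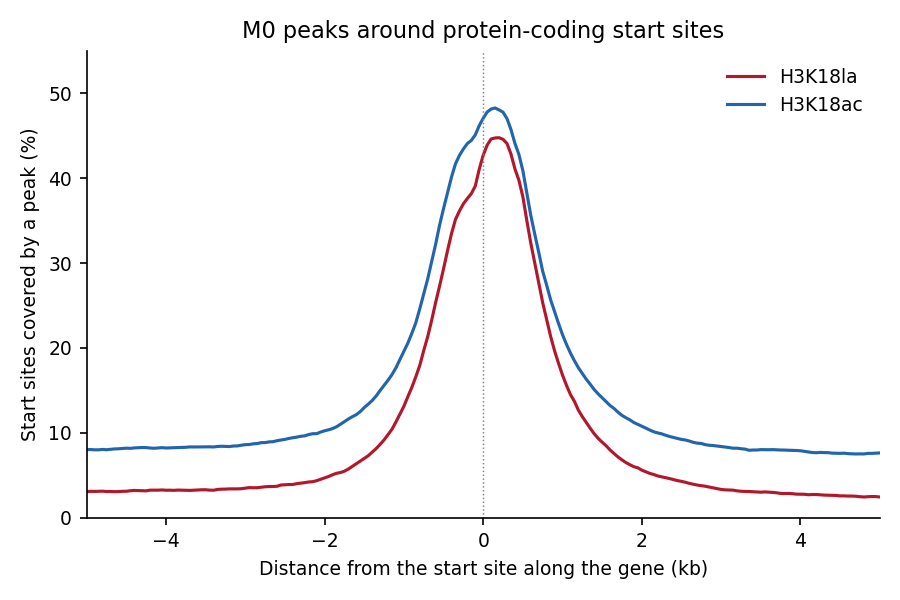
Share of 21263 protein-coding start sites (y axis, percent) whose position at each distance (x axis, kb, positive into the gene) lies in an M0 H3K18la peak (red) or an M0 H3K18ac peak (blue). The H3K18la line tops out at 44.8% and the H3K18ac line at 48.3%, and the H3K18ac line stays above the H3K18la line out to 5 kb.

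H3K18la usually occupied part of a broader acetylated domain. In the 17072 places where exactly 1 peak of each mark met, the H3K18la peak was the narrower in 14492 (84.9%), with a median of 1194 bp for H3K18la and 2124 bp for H3K18ac. Across these pairs the fold enrichments of both marks had a rank correlation of 0.765, given as a description, since the peaks share their libraries and local sequence. H3K18ac domains over 10 kb held H3K18la in 96.5% of cases, and in 1109 of 1677 at least 2 separate H3K18la peaks. In those that held any, H3K18la covered a median of 29.5% of the domain. A wide peak can meet the 1 bp rule more easily, and H3K18la covered 32.1% of all bases in domains over 10 kb. That share was 29.4% in H3K18ac peaks of 3 to 10 kb, 32.4% at 1 to 3 kb and 17.2% under 1 kb. The widest H3K18ac domain, 81936 bp over Lpp, a cytoskeletal adaptor gene (chr16:24871204-24953139), held 8 H3K18la peaks. The widest H3K18la peak, 23893 bp across Spef1l and Adam8, a membrane metalloprotease gene (chr7:139969664-139993556), lay wholly in H3K18ac.

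The strongest H3K18la peaks marked macrophage and housekeeping genes, and all of the top 10 lay wholly in H3K18ac peaks. The first by fold enrichment, 28.6, spanned 13578 bp at Zeb2, a transcription factor that maintains macrophage identity (chr2:45104926-45118503). The peak at Apobec1, which edits RNA, had 26.2. Csf1r, the receptor for the growth factor on which macrophages depend, carried a peak of 4712 bp with 23.6 at its promoter (chr18:61105184-61109895), and Actb, cytoplasmic actin, a peak of 7460 bp with 22.5. Tnrc18, Ddx6, Dhrs3, Neat1 and Tpm4 were also among them. Tnrc18, Ddx6 and Zeb2 were in the H3K18ac top 10 as well, with H3K18ac fold enrichments of 11.1, 10.8 and 10.4. Each H3K18ac peak of that top 10 held H3K18la.

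The strongest H3K18ac peaks without H3K18la had fold enrichments from 5.78 to 6.55 and lay away from the start sites in the table. The first was 1085 bp inside Ttc28 (chr5:111128041-111129125), 201572 bp from the nearest start site in the table. Others lay inside Cul9, Zfp868 and Gm39792 or between genes, such as 10303 bp from the Apoa5 start. None of the 10 lay within 1 kb of a start site in the table, which lacks some genes, so a nearer start site may be missing. Their values stood above the median of the H3K18ac peaks with H3K18la, 4.97.

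Of 27025 genes, 10037 had both marks within 1 kb of a start site, 111 had H3K18la alone, 1451 had H3K18ac alone and 15426 had neither. H3K18la was thus present at 87.4% of genes with H3K18ac, at 92.6% of the protein-coding ones and at 67.4% of the long non-coding ones. Genes with H3K18ac alone had weaker and shorter acetylation, with a median fold enrichment of 3.69 and 830 bp covered, against 5.24 and 1530 bp at genes with both. In M1 cells 71.1% of genes with H3K18ac had H3K18la, against 87.4% in M0 cells, each from 1 library per mark. The M1 H3K18la list was also shorter than the M0 list, and the part of that was not tested.

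Over all 27025 genes 37.6% had H3K18la and 42.5% had H3K18ac at a start site, and over the 17492 protein-coding ones 48.7% had H3K18la and 52.0% had H3K18ac. Lists of genes with macrophage and housekeeping functions were read against these shares, which include weakly expressed genes. In the quintile of RNA-listed genes with the highest 0 h expression, 98.5% had H3K18la and 98.8% had H3K18ac. A high share in a list of strongly expressed genes is thus not particular to that list. Of the macrophage identity genes in the start-site table, 15 of 16 had H3K18la and 16 of 16 had H3K18ac. Trem2, a lipid-sensing receptor, had an H3K18la fold enrichment of 20.4, Cd68, a lysosomal membrane protein, 17.8, and Csf2ra, a subunit of the GM-CSF receptor, 14.7. Aif1, an actin-binding protein of macrophages, had H3K18ac alone there. Among genes outside that table, Csf1r, Spi1, Adgre1 and Cd14 each had both marks in or within 1 kb of the gene. Spi1, which encodes the lineage factor PU.1, had an H3K18la peak of 9294 bp over its start and another of 18.5 fold enrichment within it.

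Both marks covered all list members in the table for cytosolic ribosomal proteins (20 of 20), the respiratory chain (17 of 17), the lysosome (17 of 17), immediate early genes (17 of 17) and the cell cycle (20 of 20). In the cell cycle list the proliferation gene Mki67 had an H3K18la fold enrichment of 15.7 and Top2a, which untangles DNA, 13.8. In M1 cells H3K18la was called at 8 of these 20 genes, against 20 of 20 in M0 cells, and H3K18ac at 13, against 20. Over all protein-coding genes H3K18la was called at 38.9% in M1 cells, against 48.7% in M0 cells, and H3K18ac at 49.9%, against 52.0%. For glycolysis and lactate handling 20 of 22 genes had H3K18la and 21 of 22 had H3K18ac. Aldoa had the highest H3K18la value of that list, 15.4, Ldha had 12.9 and Gapdh 11.8. Aldoc had H3K18ac alone, and Ldhb, the other main lactate dehydrogenase subunit, had neither mark.

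Of the genes that place or remove acyl groups, 19 of 21 had each mark, and 18 had both. Ep300, which encodes p300, led with 18.4 for H3K18la and 9.61 for H3K18ac. Hdac8, a deacetylase on the X chromosome, had H3K18la alone, Hdac9 H3K18ac alone and Hdac11 neither. Of the cholesterol synthesis genes 15 of 15 had H3K18la and 14 of 15 had H3K18ac. The exception was Nsdhl, a sterol dehydrogenase also on the X chromosome, whose 948 bp of H3K18la had no H3K18ac within 1 kb of the start. Interferon-stimulated genes had both marks before any stimulation in 21 of 22 cases, led by Irgm1 with 16.3 for H3K18la. Ifit3 had neither.

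**Figure D3:**
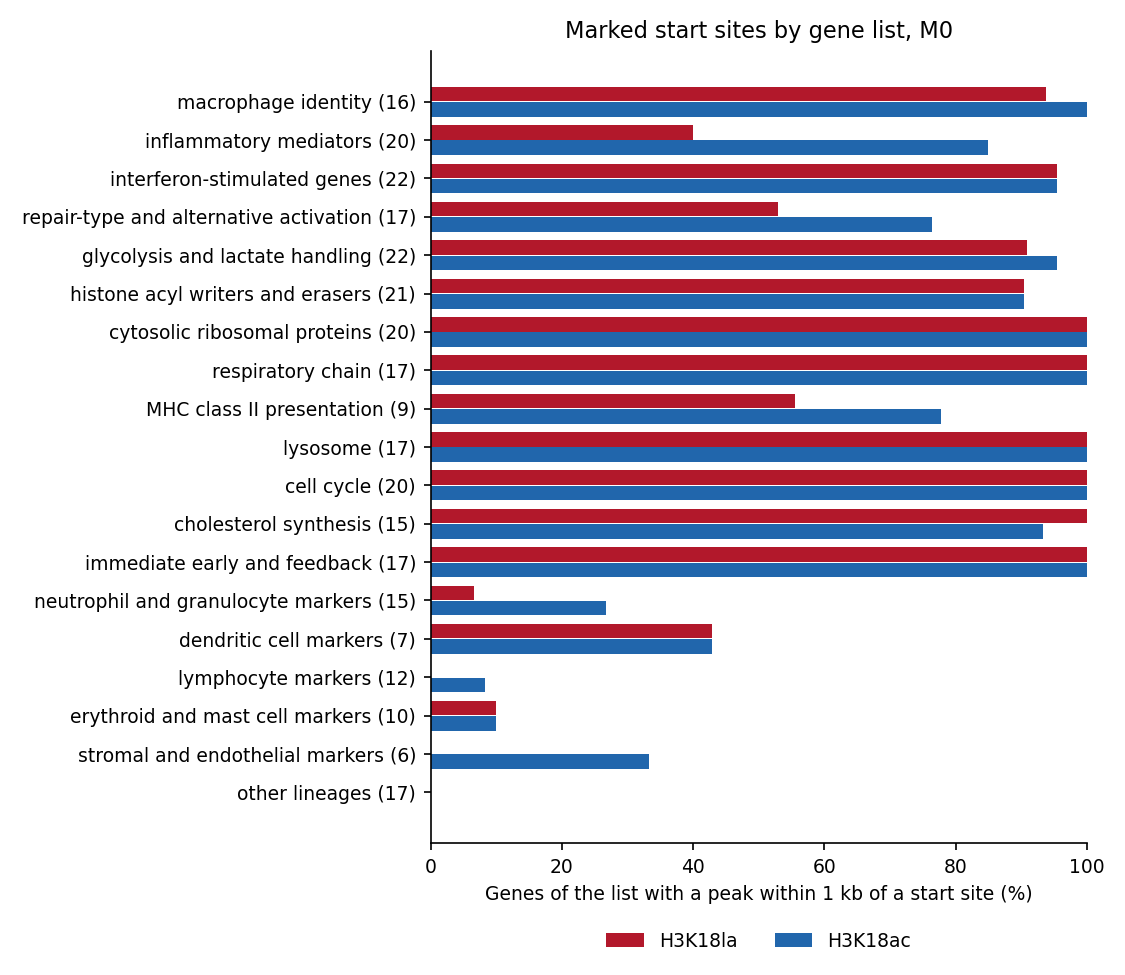
Share of the genes of each list (number in the start-site table in brackets) with an M0 peak within 1 kb of a start site (x axis, percent), for H3K18la (red, upper bar) and H3K18ac (blue, lower bar). The bars differ most for inflammatory mediators, with 8 of 20 genes for H3K18la and 17 of 20 for H3K18ac, and are both at 0 for genes of other lineages.

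Of the 19 lists, the inflammatory mediators had the widest gap between the marks. H3K18ac was present at 17 of 20 and H3K18la at 8 of 20. The genes with both were Tnf, Il18, Cxcl2, Ccl3, Ptgs2, Cd80 and the feedback inhibitors Nfkbia and Tnfaip3, and Ccl3 had the highest H3K18la value, 10.5. The 9 with H3K18ac alone were the cytokine genes Il1a, Il1b, Il6 and Il12b, the chemokine genes Cxcl1, Cxcl3 and Cxcl10, Acod1 and the acute phase gene Saa3. Their H3K18ac fold enrichments ran from 3.14 at Il12b to 4.78 at Cxcl1. Il1b, for example, had 4.20 over a peak of 7519 bp, which falls in decile 6 of the H3K18ac list, where 83.5% of start-site peaks held H3K18la. Nos2, the inducible nitric oxide synthase and not in the start-site table, had 1 H3K18ac peak of 6343 bp at the gene and no H3K18la peak. In M1 cells Acod1 had an H3K18la peak with a fold enrichment of 18.3, Nos2 one with 10.3 and Cxcl10 one with 6.69, against none in M0 cells. Il1a, Il1b, Il6, Cxcl1, Cxcl3 and Saa3 had none in either state. Il12b had an H3K18la peak in the gene but away from the start in M0 cells, with 4.21, and H3K18la alone at its start in M1 cells. Cxcl2 went the other way, with H3K18ac alone at its start in M1 cells, against both marks in M0 cells.

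Repair-type genes had H3K18la at 9 of 17 and H3K18ac at 13 of 17. The growth factor gene Igf1 had an H3K18la value of 20.5 and Pparg, a lipid-sensing nuclear receptor, 10.6. Mmp12, Mmp13, Ccl22 and Cd163 had H3K18ac alone at the start, and Retnla and Chil3 had neither mark. Vegfa, which encodes an angiogenic growth factor, had both at its start, 5.81 for H3K18la and 5.23 for H3K18ac. Arg1, which converts arginine to ornithine, had 1 peak of each mark, 1082 bp for H3K18la and 5511 bp for H3K18ac. For MHC class II presentation H3K18la was at 5 of 9 genes and H3K18ac at 7 of 9, with H2-DMa at 20.03 for H3K18la.

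The macrophage label was also checked at start sites of markers of other cell types, most of which had no peak. Among neutrophil and granulocyte markers 1 of 15 had H3K18la (Csf3r) and 4 of 15 had H3K18ac. Lymphocyte markers had H3K18la at 0 of 12 and H3K18ac at 1 of 12 (Lck), stromal and endothelial markers had H3K18la at 0 of 6 and H3K18ac at 2 of 6, and erythroid and mast cell markers had each mark at 1 of 10 (Klf1). Dendritic cell markers had both marks at 3 of 7, at Xcr1, Clec9a and Batf3. Genes of other lineages had neither mark at any of 17. Counted in or within 1 kb of the gene, more markers had peaks. H3K18la was then at 6 of 16 lymphocyte, 4 of 12 stromal and endothelial and 6 of 9 dendritic cell markers. H3K18ac was at 6, 5 and 6 of these. H3K18la was at 3 of 15 neutrophil and granulocyte and 1 of 12 erythroid and mast cell markers, and H3K18ac at 4 and 3. Other lineages had 0 of 20, and macrophage identity genes had both marks at 24 of 24. In the RNA at 0 h the macrophage identity list, with 24 of 24 members listed, had a median of 63.8 RPKM. It summed to between 21414 and 23819 RPKM across the 4 libraries, most of it from Lyz2, which averaged 16465 RPKM and is also made by neutrophils. The neutrophil list, with 8 of 15 members listed, had a median of 2.83 RPKM and summed to between 28.1 and 36.1 RPKM, and the dendritic list, with 3 of 9 listed, to between 0.793 and 1.09 RPKM.

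H3K18la without H3K18ac was rare, with 237 peaks, and these were short and weak. Their median width was 548 bp and their median fold enrichment 3.39, against 1243 bp and 5.44 for the H3K18la peaks with H3K18ac. The X chromosome held 26 of them (10.97%), while it held 2.21% of all H3K18la peaks and 1.68% of all H3K18ac peaks. It had 69.2 H3K18la peaks per 100 H3K18ac peaks, against 45.0 to 60.2 on the autosomes. The strongest lay at Kifc1, a mitotic kinesin gene (chr17:33890211-33890606), with 6.85. The next 3 were at Zfp729b, Zfp429 and Zfp729a, neighbouring zinc finger genes on chromosome 13 between 67399406 and 67637736 bp, with 6.56, 6.45 and 6.16. Others were at Kifc5b, Eif1ax and Pcgf5. Kifc5b is a close copy of Kifc1, and the zinc finger genes belong to a repeated family, so short reads could be split among copies and these positions are uncertain. Of the 237, 22 (9.28%) overlapped an H3K18la peak in M1 cells, against 57.7% of the H3K18la peaks with H3K18ac.

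The sequence at the start sites differed between the classes. In the 300 bases from 250 before to 50 after the start, the CpG ratio is the number of CG dinucleotides over that given by the base composition. Its median was 0.780 at 11918 start sites with both marks, 0.713 at 139 with H3K18la alone, 0.262 at 1873 with H3K18ac alone and 0.238 at 18921 with neither. A ratio over 0.6, as in CpG islands, was found at 73.1% of start sites with both marks, 61.9% with H3K18la alone, 15.2% with H3K18ac alone and 14.1% with neither. The GC box GGGCGG, searched on both strands, stood in 63.4% of start sites with both marks and 25.4% of those with H3K18ac alone, against 35.7% of all 32851. The TATA box TATAAA stood in 6.59% with both marks and 13.1% with H3K18ac alone, against 13.6% of all. The AP-1 motif TGAGTCA stood in 3.68% with both marks and 7.63% with H3K18ac alone, against 5.20% of all. The PU.1 motif GAGGAAGT stood in 3.60% with both marks and 3.10% with H3K18ac alone, against 3.20% of all. The promoters printed above follow this order, with a CpG ratio over the 300 bases of 0.882 at Ldha, 0.524 at Zfp429, 0.214 at Il6 and 0.121 at Acod1. A match is a description of letters and not evidence of binding.

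Among genes in the RNA table, those with both marks had the highest levels at 0 h. The RNA table lists 11184 genes with RPKM values (read numbers divided by gene length and sequencing depth), and all but 19 have a false discovery rate under 0.05 in the authors' deposited table, so it is a selection of genes called by the authors. Of these, 9077 matched a start site. These are bulk samples, in which fewer cells of a type and less RNA per cell cannot be told apart. The table lists 93.7% of the protein-coding genes with both marks, 79.3% of those with H3K18la alone, 47.7% of those with H3K18ac alone and 7.48% of those with neither. Over the listed genes, the median at 0 h was 6.12 ± 0.03 RPKM with both marks (SD, n = 4). It was 2.41 ± 0.11 with H3K18la alone, 0.819 ± 0.038 with H3K18ac alone and 0.548 ± 0.008 with neither. No library of one class overlapped those of another, the closest being 0.769 RPKM for the lowest library with H3K18ac alone and 0.556 for the highest with neither. All classes were read from the same 4 libraries. The SDs and this gap therefore show how repeatable the median of a fixed set of genes is, and not the spread between genes.

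**Figure D4:**
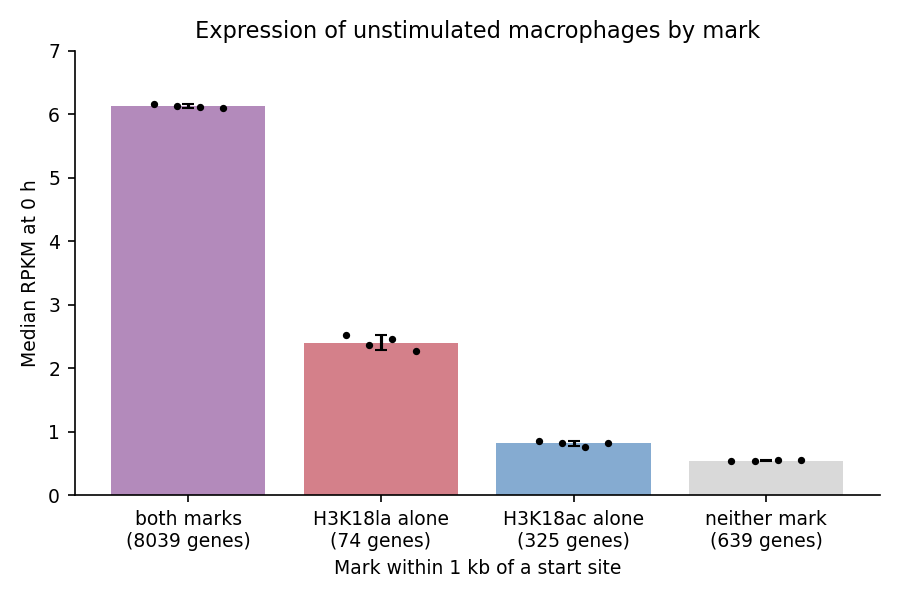
Median RPKM at 0 h over the listed genes of each class (y axis), with points for the 4 libraries, bars for their mean and error bars for 1 SD. The bar for both marks stands at 6.12 RPKM, H3K18la alone at 2.41, H3K18ac alone at 0.819 and neither mark at 0.548.

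Across the listed genes, the share with H3K18la at the start was 64.9% in the quintile with the lowest 0 h expression, up to 1.31 RPKM, and 98.5% in the highest quintile, from 18.1 RPKM. For H3K18ac the share was 74.6% in the lowest quintile and 98.8% in the highest. Among genes with H3K18ac, 85.5% had H3K18la in the lowest quintile and 99.4% in the highest. Among the genes with both marks, the quartile with the highest H3K18la fold enrichment had a median of 10.5 ± 0.2 RPKM and the lowest quartile 3.41 ± 0.05. By H3K18ac the highest quartile had 9.34 ± 0.16 RPKM and the lowest 3.85 ± 0.06 RPKM (SD, n = 4 libraries each).

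The RNA at 24 h of LPS and IFNg, which no peak list used, was then set beside the class of each gene at rest. Of 9942 genes tested with limma on log2(RPKM + 1), 3966 were higher at 24 h (39.9%) and 3713 lower (37.3%), 77.2% in all at an adjusted p under 0.05. Among 7448 genes with both marks 2893 were higher and 2868 lower, close to that background, with a median log2 change of 0.00 against 0.02 over all genes tested. Among 60 with H3K18la alone 19 were higher and 27 lower. Among 220 with H3K18ac alone 124 went up (56.4%) and 63 went down, the median log2 change being 0.26. Among 370 with neither mark 177 (47.8%) went up and 87 went down. The low-value filter, at least 1 RPKM in at least 4 of 32 libraries, keeps genes of low 0 h level mainly if they are higher later, so the filtered counts of the weakly expressed classes are not read as an excess. With no filter, of all 325 listed genes with H3K18ac alone 146 were higher (44.9%) and 120 lower. Of all 639 with neither mark 234 were higher (36.6%) and 221 lower, against 4209 higher (37.6%) and 4387 lower of all 11184. The unfiltered counts still cover only listed genes, nearly all of them called by the authors, so they are not read as an excess either.

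Of the inflammatory mediators 27 of 28 were listed and tested, and 26 of them were higher at 24 h and 1 was lower (median log2 change 1.89). Over all genes tested 39.9% were higher and 37.3% lower, and this list was chosen with earlier results of these data known. All 9 with H3K18ac alone were higher, with a median log2 change of 2.64, and of the 8 with both marks 7 went up and 1 went down (median 1.57). Members under 1 RPKM at 0 h could pass the low-value filter only through stimulated libraries. They included Il1a, Il1b, Il6, Il12b, Cxcl1 and Cxcl3 with H3K18ac alone. Cxcl2 and Ptgs2 with both marks, Cxcl9 and Ptges with neither, and Cxcl11 and Nos2 outside the start-site table were also under 1 RPKM. These counts and medians are therefore not read as a difference between the classes. At 0 h the H3K18ac-alone members had a median of 0.136 RPKM, from 0.0179 at Il12b to 13.3 at Saa3, and the members with both marks 5.70 RPKM. The groups overlapped, since Ptgs2, with both marks, had 0.225 ± 0.039 RPKM at 0 h (SD, n = 4).

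Acod1 had 283, 302, 322 and 268 RPKM at 24 h, against 8.97, 7.59, 6.29 and 6.76 RPKM at 0 h. All 24 h libraries were above all 0 h libraries, and the log2 change was 5.14 ± 0.08 (SE, limma adjusted p = 6.28e-31). Il1b had 28.5, 50.3, 45.2 and 66.3 RPKM at 24 h, against 0.599, 0.752, 0.581 and 0.581 RPKM at 0 h, a log2 change of 4.84 ± 0.22 (SE, limma adjusted p = 5.45e-19). Il6 was near 0 in both groups, with 0.169, 0.247, 0.199 and 0.469 RPKM at 24 h and 0.0336, 0.0601, 0.0399 and 0.0198 RPKM at 0 h. Its groups did not overlap, and its log2 change, understated at such levels by the pseudocount of 1, was 0.29 ± 0.08 (SE, limma adjusted p = 0.00232).

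Genes with both marks moved either way. Tnf had 10.8, 12.0, 11.9 and 10.5 RPKM at 24 h, against 4.91, 3.84, 4.05 and 3.45 RPKM at 0 h, a log2 change of 1.29 ± 0.08 (SE, limma adjusted p = 1.94e-15). Ldha had 821, 1015, 855 and 1029 RPKM at 24 h, against 463, 449, 430 and 347 RPKM at 0 h, a log2 change of 1.14 ± 0.09 (SE, limma adjusted p = 6.39e-13). Csf1r fell to 144, 138, 166 and 145 RPKM at 24 h, against 339, 348, 403 and 393 RPKM at 0 h, a log2 change of -1.32 ± 0.08 (SE, limma adjusted p = 7.69e-16). Groups did not overlap for any of these 3 genes. Over whole lists, whatever their marks, all 21 cholesterol synthesis genes and 22 of 25 cell cycle genes were lower at 24 h, against 37.3% of all genes tested. Of 30 interferon-stimulated genes 27 were higher, against 39.9%.

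Of the genes with H3K18la alone, Kifc1 fell to 1.06 ± 0.20 RPKM at 24 h, against 11.2 ± 1.2 RPKM at 0 h (SD, n = 4 each), a log2 change of -2.57 ± 0.07 (SE, limma adjusted p = 5.74e-25). Nsdhl fell to 9.10 ± 1.23 RPKM, against 24.9 ± 2.6 RPKM, and Hdac8 to 1.02 ± 0.13 RPKM, against 1.65 ± 0.15 RPKM. Zfp429 had 5.01 ± 0.55 RPKM at 24 h and 4.19 ± 0.21 RPKM at 0 h, a log2 change of 0.21 ± 0.08 (SE, limma adjusted p = 0.0140).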

How the data were processed

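Members and gene lists were chosen with earlier results of these data known. Per the submitters' processing notes, Bowtie2 2.2.6, HISAT2 2.1.0, SAMtools 0.1.19, MACS2 2.2.1, featureCounts 1.5.0-p1 and edgeR were used with builds mm10 and GRCm38; the peak threshold and control are not given in the sources used here. The authors deposited 1 broad peak list per library, with a score, a fold enrichment (a ratio) and −log10 p and q per peak. They also deposited counts of mouse and spike-in reads with a scaling factor, and RPKM values with p-values and false discovery rates per gene. The word RPKM is not in the table's header and was taken from the values and the named tools. Total read counts behind the RPKM are not known; low values gave relative effective sizes within 1.13-fold among the 0 h libraries and 1.31-fold among the 24 h libraries.

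Peaks were intersected with Python 3.11.15 and pandas, with at least 1 bp shared. Start sites came from RefSeq promoters (GRCm38.p6, 27025 genes); a mark within 1 kb counted as present. Genes were matched by symbol (8771), by Ensembl ID (194) or by older symbol (112). Limma 3.58.1 (R 4.3.3) was fitted with its trend option to log2(RPKM + 1) of all 32 RNA libraries keeping genes that reached 1 RPKM in 4 or more, with Benjamini-Hochberg adjustment, and was tested on simulated data. Differences on this scale understate the change of low genes. Alternatives changed the overlap rule, peak threshold, merging, window, pseudocount, filter, libraries and replicate block. Genes named always were Csf1r, Spi1, Actb, Gapdh, Ldha, Nos2, Arg1, Vegfa, Il1b, Il6 and Tnf, with the up to 4 list members of highest enrichment, members with H3K18la alone and the strongest and widest peaks. An item that the rule names is not reported here. Other named genes, such as Acod1 and list members with H3K18ac alone or no mark, were chosen after their values were seen.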

Additional observations from a re-analysis of the deposited data

Results flagged for a closer look

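Among 40 sets of 4 libraries checked for a lone extreme value, 2 were set apart, and chance sets apart about 1 in 20. For Gapdh at 0 h the values were 108, 107, 108 and 93.3 RPKM, and the gap below the last was 0.886 of the whole range. For Il1b at 0 h they were 0.599, 0.752, 0.581 and 0.581 RPKM, and the gap above replicate 2 was 0.896 of the range. Both 24 h groups lay above every 0 h library, with or without these values.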

How the results depend on the processing

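The share of H3K18la peaks with H3K18ac was 98.0% when 50% of the peak had to be covered, 96.0% with a −log10 q of at least 5 in both lists and 92.4% against an H3K18ac list cut to equal length by −log10 p. The share of H3K18ac peaks with H3K18la was 25.9%, 69.2% and 80.3% under the same settings, and 54.1% after peaks closer than 3 kb were merged, an alternative added after the data were seen. Merging at 1 kb changed nothing, since the smallest gap was 1121 bp. At a −log10 q of at least 5 the covered lengths were 30.3 Mb for H3K18la and 82.4 Mb for H3K18ac, the median widths 1433 bp for H3K18la and 2307 bp for H3K18ac, and the genes with H3K18la alone 487 in place of 111. With the 3 kb merge they were 1307 bp for H3K18la and 1776 bp for H3K18ac. The authors' factors, both 1 in M0, gave a mouse read ratio of 0.595 in place of 0.101 per spike-in read.

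The median 0 h RPKM with both marks was 6.17 with a 500 bp window, 6.06 with 2.5 kb and 6.95 with the low-value filter. With H3K18la alone it was 2.91 with the filter. With H3K18ac alone it was 0.770 with 2.5 kb and 1.76 with the filter, and with neither mark 0.563 with 500 bp, 0.533 with 2.5 kb and 1.503 with the filter. With no filter, 120 genes with H3K18ac alone and 221 with neither were lower at 24 h, in place of 63 and 87. With a replicate block 3950 genes were higher and 3705 lower at 24 h, in place of 3966 and 3713, and no count by class moved by over 1.5 times. Leaving out each 0 h or 24 h library in turn gave between 3826 and 3958 higher genes. Same-numbered libraries deviated with correlations of -0.26, 0.13, 0.51 and 0.28, so the numbers are not taken as pairs. Of 179 alternative values 153 kept their size, most of them RNA counts, which were allowed to differ up to 1.5 times. Apart from peak merging, every alternative tested on them moved the overlap shares, covered lengths, median widths and spike-in ratio of the peaks. Merging at 1 kb moved none. Merging at 3 kb moved the median widths and the share of H3K18ac peaks with H3K18la, but not the share of H3K18la peaks with H3K18ac. Depth differed between the ChIP libraries, there was 1 per mark, and a missing peak says only that none was called.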

Other observations

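The authors' scaling and the spike-in ratio order the H3K18la libraries differently. The H3K18la library had 148 mouse reads per spike-in read in M1 cells and 70.2 in M0 cells, 2.11 times as many, while the authors' normalized read number was 9663096 in M1 cells and 21765076 in M0 cells, 0.444 times. Their factor of 0.46 is the M1 over the M0 spike-in read count. For H3K18ac both measures were lower in M1 cells, at 0.937 and 0.865 of M0.

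Acetylation peaks that held H3K18la in M0 cells overlapped an M1 H3K18ac peak in 94.1% of 19013 cases, and those without it in 61.1% of 22480. The peaks with H3K18la were also stronger and wider, with a median H3K18ac fold enrichment of 4.97 and 2401 bp. Those without it had 3.42 and 1064.5 bp, and the part of strength and width in the overlap was not tested. Gene symbols of zinc finger proteins, a family picked after the values were seen, made up 8 of the 111 genes with H3K18la alone (7.21%), 2.44% of those with both marks, 0.482% of those with H3K18ac alone and 0.661% of those with neither, against 1.34% of all 27025 genes.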
